A study of Arabidopsis thaliana with 24 samples.

Results

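Leaf RNA of Arabidopsis thaliana was compared between the 2 growth regimes that differ most in the study: strong light with cool leaves, and weak light with warm leaves. The cool group, IT_HLC, holds the 3 libraries labelled Castelnuovo-12 (Italy) and High light, cool. The warm group, SW_LLW, holds the 3 libraries labelled Rodasen-47 (Sweden) and Low light, warm. They are 6 of the 24 libraries of the series, which crosses the 2 ecotypes with 4 regimes of light and temperature in 3 biological replicates each. These 6 were picked because both groups carry the same transcripts among those that are switched wholly on or off between groups of the series, so that the regime changes while this set does not. That choice used measured values, and the ecotype labels still differ, so in this comparison alone the regime and the label cannot be told apart, nor can light and temperature.

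Plants of the 2 ecotypes, with no transgene or mutation named in the labels, were grown from seed in growth chambers under a photoperiod of 9 h. IT_HLC plants received 1000 µmol photons per square metre and second, with leaf temperatures of 14 °C by day and 12.5 °C by night. SW_LLW plants received 100 µmol, with leaf temperatures of 25 °C and 20 °C. In both groups 2 discs of 0.73 square cm were taken from the youngest fully developed leaf of vegetative plants and frozen when the 15 h night ended. Each measurement is therefore an end-of-night level in a mature leaf. Nothing in the labels ties a replicate to its own plant or growth run, so p-values measure only spread between libraries. The test estimates a gene's spread from all 24 libraries and takes it as the same in all 8 groups.

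A leaf that develops in the cold acclimates. In Arabidopsis the transcription factors CBF1, CBF2 and CBF3 bind a short promoter element and raise a set of cold-regulated genes whose proteins protect membranes and enzymes, while raffinose, proline and sucrose accumulate. Strong light brings its own programme, in which antenna proteins of the photosystems decrease and proteins that dissipate excess energy increase. Warmth and shade do the opposite to growth: PIF transcription factors, auxin and brassinosteroids drive cell expansion.

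The 6 libraries held between 13119998 and 16345759 counts, of which 55.32% to 62.58% came from the plastid genome. Nuclear ribosomal RNA took 7.87% of IT_HLC replicate 3 and at most 0.98% of each of the other 5 libraries. Of 8 marker genes of roots, seeds and flowers, 7 were at the table minimum of 1 count in all 6 libraries. The summed level of the 8 was 0.349 to 0.586 counts-per-million (CPM, scaled by the TMM method) in each library. Every level below is a CPM in this scale, and a level of about 0.04 to 0.07 is that minimum, since the table holds no 0. CPM does not correct for gene length, so levels are compared between libraries and not between genes.

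A pair of IT_HLC libraries stood apart, each in its own way. IT_HLC replicate 3 lay closer to the 3 libraries labelled Rodasen-47 High light, cool (SW_HLC), at 0.75 to 0.80 as a root mean square log2 distance, than IT_HLC replicates 1 and 2 did, at 1.02 to 1.29. Its distance to IT_HLC replicate 1 was 0.71. IT_HLC replicate 2 lay 0.91 from replicate 1 and 0.93 from replicate 3, while the SW_LLW libraries lay 0.47 to 0.5 apart. IT_HLC replicate 2 was low in nuclear photosynthesis transcripts: the summed level of 21 antenna genes was 17270, 4470 and 14580 CPM in IT_HLC replicates 1, 2 and 3. The gene tests and list counts were repeated without replicate 3, and the shares of promoters given below were not. Values without replicate 2 are given for part of the results that it decides.

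The on/off transcripts set replicate 3 apart as well. From the 18 libraries outside both groups, 72 transcripts were picked that had at least 10 counts in every low-light cool library of both labels and at most 2 counts in every library of Castelnuovo-12 low light warm, of Rodasen-47 High light cool and of both high-light warm groups. This rule joins groups across the ecotype labels, so the chosen transcripts do not follow the labels by construction. Transcripts that follow the labels were not counted here. A second set of 55 transcripts had the reverse pattern. Members were chosen with earlier results of these data known, and what follows is a description without a test.

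The first set was on in both groups. Its summed level, as a percentage of that in the groups where it was chosen as on, was 105.5, 99.9 and 117.5 in SW_LLW replicates 1, 2 and 3. In IT_HLC it was 117.6, 116.3 and 60.5. The second set was near its floor in 5 of the 6 libraries, at 1.14 to 2.04%, and reached 35.2% in IT_HLC replicate 3, where 54 of its 55 transcripts had more than 2 counts. So replicate 3 held both sets at intermediate levels, and the other 5 libraries held 1 set.

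Single members are shown as examples. QQS and CSA1 below were among the transcripts by which the groups were picked, so their state there was known beforehand. QQS (AT3G30720), a short gene found in Arabidopsis thaliana that affects leaf starch, had 270, 255 and 337 counts in SW_LLW and 162, 182 and 50 in IT_HLC. AGL62 (AT5G60440), a MADS-box gene known from the endosperm, had 43, 48 and 36 counts in SW_LLW and 58, 78 and 22 in IT_HLC. Both were lowest in IT_HLC replicate 3. In the second set, CSA1 (AT5G17880), a resistance gene of the NLR class, had 1 count, the table minimum, in each of 5 libraries and 70 in IT_HLC replicate 3. Its genomic neighbour DAR4 (AT5G17890) had 118 counts there and at most 2 in the other 5.

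**Figure D1:**
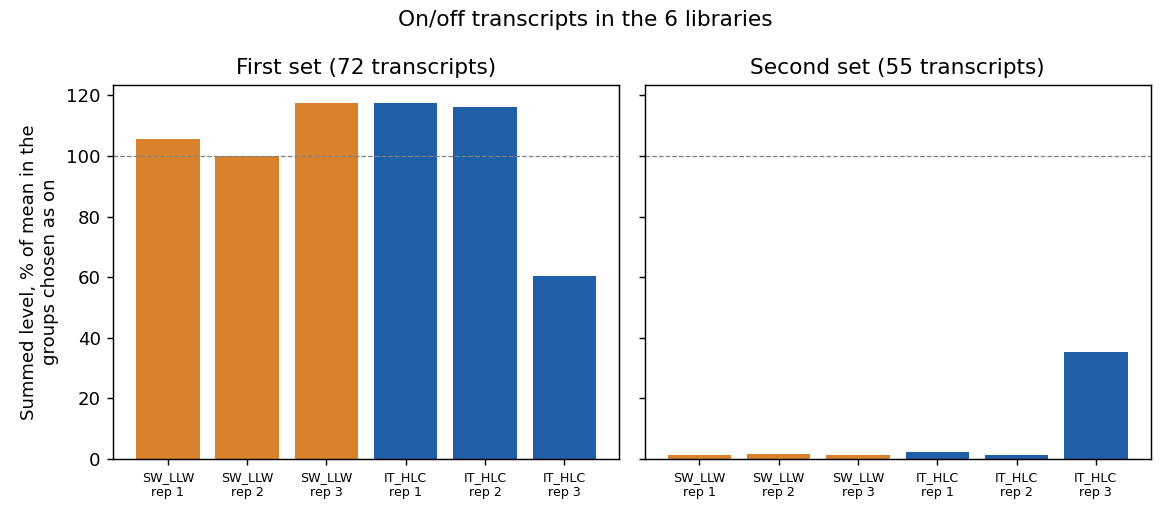
Level of the on/off transcripts in each of the 6 libraries, as a percentage of their level in the groups in which they were chosen as on (72 transcripts of the first set, 55 of the second). Both groups hold the first set, and IT_HLC replicate 3 alone holds 35.2% of the second set's summed level beside 60.5% of the first.

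Promoters of genes described below are shown here, because cold-regulated and clock-regulated genes carry known short elements. Each line gives the 250 bases before the annotated start in the RefSeq assembly TAIR10.1, read 5′ to 3′ on the gene's strand. Capitals mark CCGAC (the core that CBF factors bind), AAAATATCT (the evening element of clock-regulated genes) and CACGTG (the G-box), on either strand. Matches of each element were counted separately even where they overlapped.

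RD29A, chr5:21240467-21240716, plus strand: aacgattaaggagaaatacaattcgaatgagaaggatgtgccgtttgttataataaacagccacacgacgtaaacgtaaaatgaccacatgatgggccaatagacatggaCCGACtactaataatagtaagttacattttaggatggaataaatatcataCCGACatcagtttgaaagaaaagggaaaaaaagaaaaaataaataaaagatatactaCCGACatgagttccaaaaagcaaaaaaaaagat
COR15A, chr2:17712331-17712580, minus strand: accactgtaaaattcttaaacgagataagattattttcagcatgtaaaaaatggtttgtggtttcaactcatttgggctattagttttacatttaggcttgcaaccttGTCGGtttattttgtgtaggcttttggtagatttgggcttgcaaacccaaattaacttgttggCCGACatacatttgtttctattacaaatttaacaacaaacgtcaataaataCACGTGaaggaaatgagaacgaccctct
GRP7, chr2:9266558-9266807, minus strand: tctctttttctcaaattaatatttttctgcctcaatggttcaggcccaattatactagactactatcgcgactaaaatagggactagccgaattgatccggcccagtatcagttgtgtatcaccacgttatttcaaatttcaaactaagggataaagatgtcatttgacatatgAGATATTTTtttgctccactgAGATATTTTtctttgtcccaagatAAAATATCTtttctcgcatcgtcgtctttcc
TOC1, chr5:24674713-24674962, plus strand: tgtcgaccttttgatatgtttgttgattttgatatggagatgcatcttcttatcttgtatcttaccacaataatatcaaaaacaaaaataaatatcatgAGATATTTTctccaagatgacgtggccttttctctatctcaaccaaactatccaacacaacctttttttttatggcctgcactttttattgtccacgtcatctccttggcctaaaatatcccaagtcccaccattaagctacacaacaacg

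The first pair are cold-protection genes with CCGAC, 3 matches for RD29A and 2 for COR15A, which also has 1 G-box. The others are genes with evening elements, 3 in GRP7 and 1 in TOC1. Over the 17080 tested genes with a promoter, 13.3% held CCGAC, 2.55% the evening element and 7.36% a G-box. Among the 721 promoters of genes that were called higher in IT_HLC with a log2 fold change of 2 or more, 127 held CCGAC, and the shares of the other two were 9.43% and 11.9%. Among the 787 of genes that were called lower by as much, 70 held CCGAC (8.89%), and the other two had shares of 1.27% and 5.97%. Relative to the share over all promoters, the evening element differed most between risen and fallen genes. A match describes these letters in this window and is not a measured binding site, and KIN1, COR28 and COR47, which are cold-regulated genes too, held none of the 3.

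Levels differed between the groups in a large part of the leaf transcriptome. Of 17709 genes tested, 3638 (20.5%) were higher and 3675 (20.8%) were lower in IT_HLC than in SW_LLW at a Benjamini-Hochberg adjusted p below 0.05 in edgeR's quasi-likelihood test. Of these, 1728 rose and 2017 fell by a log2 fold change of 1 or more in size. Without IT_HLC replicate 3, 3377 of 18145 genes (18.6%) were higher and 3419 (18.8%) lower. The calls shared by both fits numbered 6226, with 0 of opposite sign, while 1087 were made only with replicate 3 and, of the genes tested in both fits, 451 only without it. The levels of the groups did not overlap for 6706 of the 7313 called genes, and for 8537 (48.2%) of all genes tested. A lack of overlap, where stated below for called genes, was thus the usual case. When only the compared libraries entered the fit, 2533 genes were higher and 2332 lower. The rule of choice rested on other transcripts of this contrast, so these counts describe the 2 groups, and single genes follow.

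**Figure D2:**
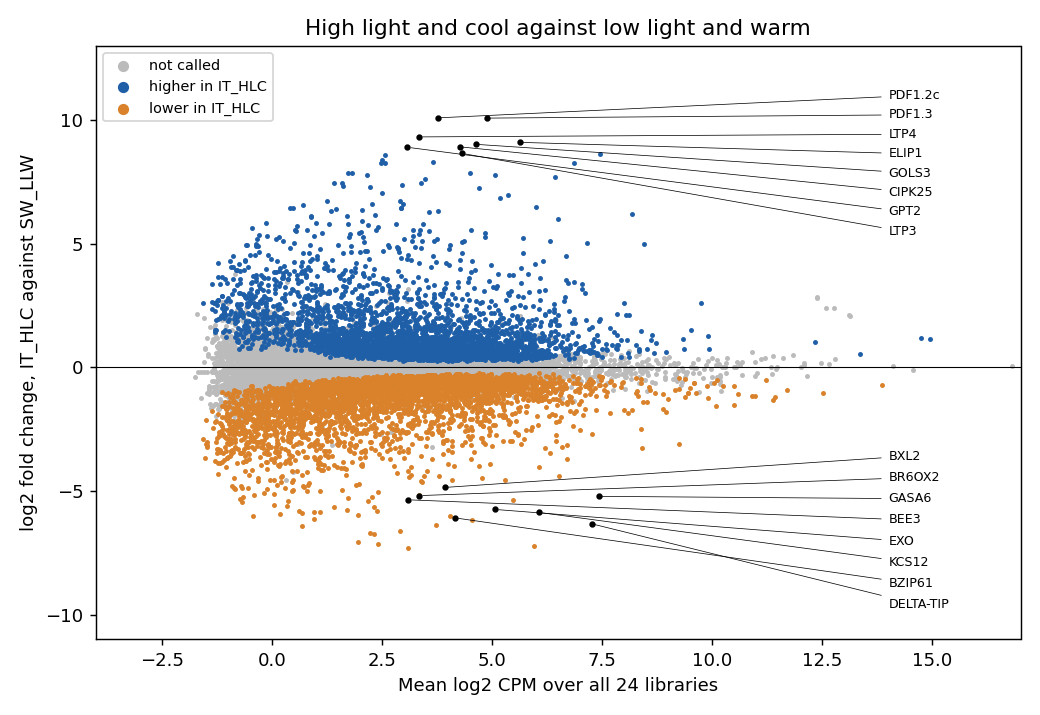
Log2 fold change of IT_HLC against SW_LLW for all 17709 genes tested, over the mean log2 CPM of the 24 libraries. Blue genes were called higher and orange genes lower, and the 8 largest rises and falls of the naming rule are labelled, such as ELIP1 at 9.10 and DELTA-TIP at -6.33.

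Among genes with a symbol, a mean level from 3 log2 CPM upward, a call with and without IT_HLC replicate 3 and no overlap of the groups, the 8 largest rises were of genes for defence peptides, lipid transfer, photoprotection, signalling and sugars. All 8 were below 1 CPM in every SW_LLW library. ELIP1 (AT3G22840), an early light-induced protein that binds chlorophyll under light stress, was at 0.38, 0.763 and 0.36 CPM in SW_LLW and 236, 377 and 225 CPM in IT_HLC (log2 fold change 9.10 ± 0.65 SE, edgeR adjusted p = 5.49e-09). GOLS3 (AT1G09350), a cold-induced galactinol synthase that starts raffinose synthesis, went from 0.254, 0.255 and 0.24 to 78.5, 84.2 and 239.5 CPM (log2 fold change 9.02 ± 0.74 SE, edgeR adjusted p = 2.62e-08). The 3 libraries of each group were well separated for both genes. GOLS3 was highest in IT_HLC replicate 3, and its log2 fold change was 8.31 without that library. CIPK25 (AT5G25110), a protein kinase that partners calcium sensors of the CBL family, went from 0.127, 0.064 and 0.6 to 67.6, 237 and 96.9 CPM (log2 fold change 8.92 ± 0.59 SE, edgeR adjusted p = 2.22e-09), with 10.34 without SW_LLW replicate 3 and 8.21 without IT_HLC replicate 2.

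A second kind of large rise rested on very uneven IT_HLC libraries. PDF1.3 (AT2G26010), a plant defensin, was at 0.063, 0.318 and 0.18 CPM in SW_LLW and 603, 8.46 and 21.4 CPM in IT_HLC, highest in replicate 1 (log2 fold change 10.08 ± 1.55 SE, edgeR adjusted p = 4.38e-05); without that library its log2 fold change was 6.25. PDF1.2c (AT5G44430), a near-identical defensin that can share its reads, was at the minimum in all SW_LLW libraries and at 210.1, 2.01 and 18.7 CPM in IT_HLC. Its mean in IT_HLC, with replicate 1 far the highest, was at least 412-fold higher than a floor of 3 counts per SW_LLW library. The fitted log2 fold change of PDF1.2c was 10.09, or 7.17 without that replicate. The lipid transfer proteins LTP3 (AT5G59320) and LTP4 (AT5G59310), which are neighbours and similar in sequence, had 72.7, 126 and 37.5 CPM and 16.8, 194 and 2.96 CPM in IT_HLC against at most 0.445 and 0.18 in SW_LLW. LTP4 was highest in IT_HLC replicate 2, and so was GPT2 (AT1G61800), a plastid glucose 6-phosphate carrier, at 2.87, 151 and 5.41 CPM. Without replicate 2 the log2 fold changes were 6.48 for LTP4, from 9.32, and 5.19 for GPT2, from 8.90. In these genes the size of the change is uncertain, and the lack of overlap was a condition of the choice. With 1 subtracted from every count, since LTP4 and GPT2 were at the minimum in 2 SW_LLW libraries, their log2 fold changes were 10.46 and 10.04. For LTP3 the log2 fold change was 8.65, or 10.14 without SW_LLW replicate 2.

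By the same rule, the 8 largest falls included a water channel and genes tied to cell expansion. DELTA-TIP (AT3G16240), an aquaporin of the vacuole membrane, was at 184, 126 and 259 CPM in SW_LLW and 3.57, 0.523 and 3.17 CPM in IT_HLC (log2 fold change -6.33 ± 0.55 SE, edgeR adjusted p = 4.83e-08). EXO (AT4G08950), which brassinosteroids raise during cell expansion, went from 19.6, 25.1 and 30.5 to 0.426, 0.262 and 0.793 CPM (log2 fold change -5.75 ± 0.52 SE, edgeR adjusted p = 7.17e-08). KCS12 (AT2G28630), a very-long-chain fatty acid synthase, went from 59.1, 63 and 50.2 to 0.532, 0.262 and 2.45 CPM (log2 fold change -5.87 ± 0.48 SE, edgeR adjusted p = 2.04e-08), and its log2 fold change was -7.18 without IT_HLC replicate 3. For each of these 3 genes the IT_HLC libraries were far below SW_LLW, with replicate 2 the lowest.

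Genes of brassinosteroid synthesis and response were among the other large falls. BR6OX2 (AT3G30180), the enzyme that makes brassinolide, went from 22.2, 31.8 and 40.1 to 1.28, 0.262 and 1.15 CPM (log2 fold change -5.19 ± 0.55 SE, edgeR adjusted p = 5.98e-07). BEE3 (AT1G73830), a transcription factor raised early by brassinosteroids, had a log2 fold change of -5.36 ± 0.50 SE, and GASA6 (AT1G74670), a gibberellin-regulated peptide of growing tissue, -5.22 ± 0.62. GASA6 was at 273, 319.5 and 258 CPM in SW_LLW and 7.5, 1.09 and 14.7 CPM in IT_HLC, lowest in replicate 2. The log2 fold change of GASA6 was -6.06 without IT_HLC replicate 3, and that of BEE3 -4.71 without replicate 2. BZIP61 (AT3G58120), a transcription factor of the bZIP class, fell by a log2 fold change of -6.09, or -7.44 without IT_HLC replicate 3 and -5.46 without replicate 2. BXL2 (AT1G02640), a cell wall xylosidase, fell by -4.86, with -5.84 and -4.25 when IT_HLC replicate 1 or 2 was left out.

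To read the change by function, 40 gene lists of known pathways and cell types were counted, with the share of all genes called (20.5% higher, 20.8% lower) as the background. A list's median log2 fold change is set against 0.00, the median over all genes tested. Genes at the minimum in a whole group have only a bound, and placing them at that bound moved no list median by more than 0.01. List membership rests on textbook roles and the lists were made with results of these data known, so the counts describe the lists.

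**Figure D3:**
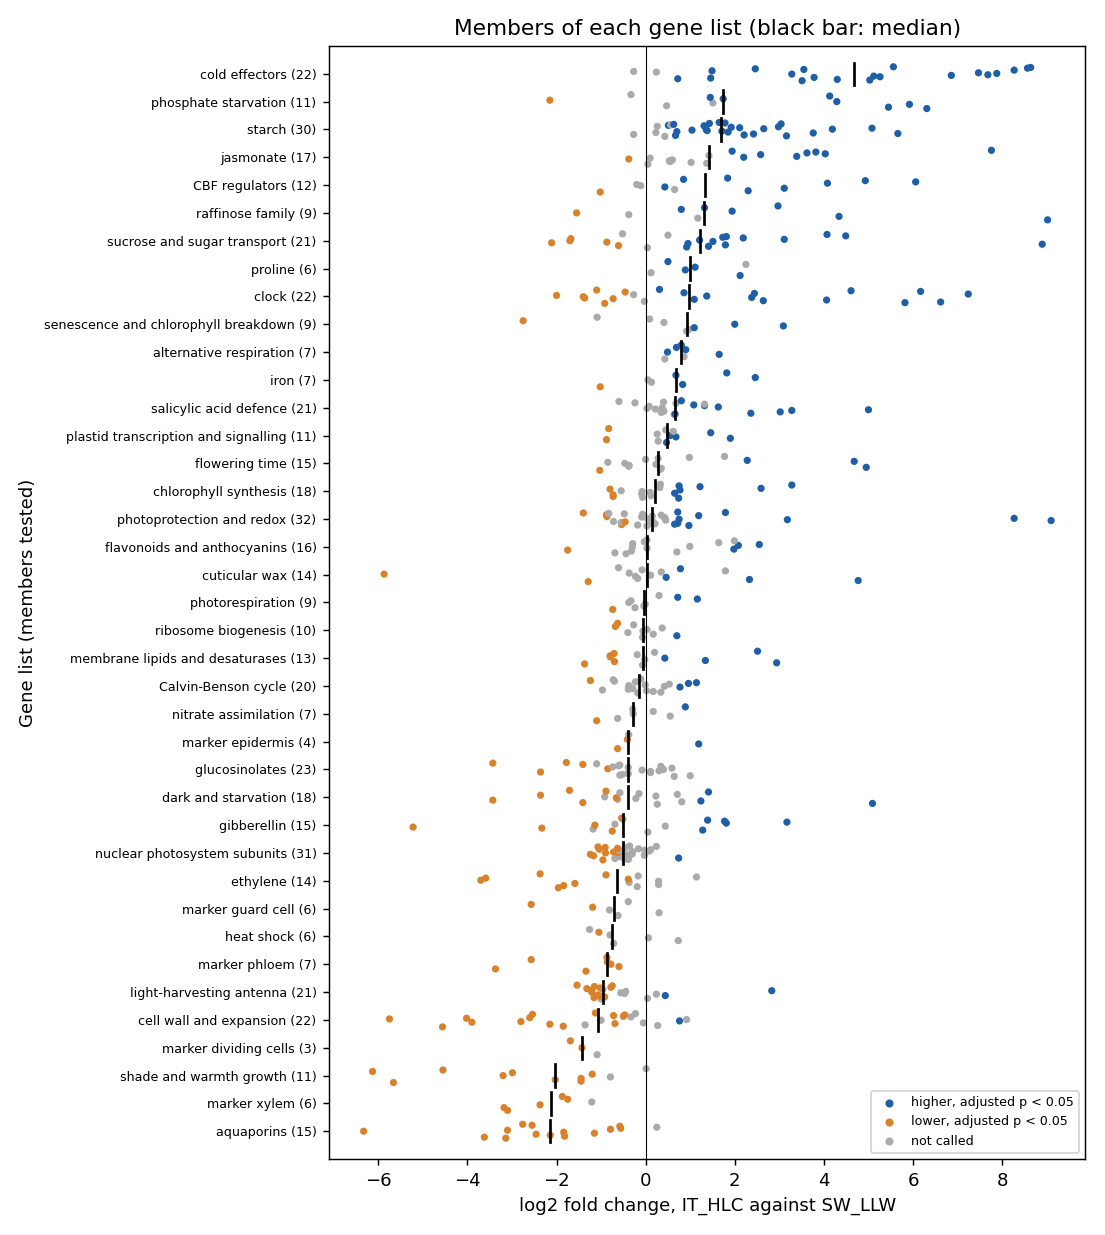
Log2 fold change of IT_HLC against SW_LLW for each tested member of the gene lists, with the list median as a black bar. Cold effectors have the highest median, 4.67, and aquaporins the lowest, -2.14, with called members in blue (higher) and orange (lower).

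Cold response genes rose almost as a block. Of 22 tested cold effectors, the genes whose products protect cells in the cold, 20 rose, 0 fell and 2 did not pass the test, with a median log2 fold change of 4.67. Their summed level was 164.8, 168.0 and 157.7 CPM in SW_LLW and 3042, 5942 and 3622 CPM in IT_HLC. Both counts were the same without IT_HLC replicate 3, and 17 rose and 1 fell without replicate 2.

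RD29A (AT5G52310), a hydrophilic protein induced by cold and drought, was at 3.23, 2.04 and 3.18 CPM in SW_LLW and 814, 1737 and 822 CPM in IT_HLC (log2 fold change 8.64 ± 0.66 SE, edgeR adjusted p = 1.27e-08). COR15A (AT2G42540), which stabilises chloroplast membranes in freezing, went from 1.71, 1.46 and 2.1 to 362, 427 and 301 CPM (log2 fold change 7.68 ± 0.58 SE, edgeR adjusted p = 1.12e-08). These are the genes whose promoters with CCGAC are printed above, and both were chosen after their values were seen. COR15A and its near copy COR15B (AT2G42530) may share reads, and COR15B went from 0.951, 1.91 and 0.66 to 150.5, 94.3 and 165 CPM (log2 fold change 6.86 ± 0.45 SE). The dehydrin COR47 (AT1G20440) was already expressed in the warm leaf, at 23.8, 26.1 and 24.5 CPM, and reached 581, 1059 and 793 CPM in IT_HLC (log2 fold change 5.03 ± 0.27 SE, edgeR adjusted p = 2.02e-10). COR413-PM1 (AT2G15970), a membrane protein, went from 14.6, 13.9 and 12.4 to 168, 226 and 168 CPM (log2 fold change 3.78 ± 0.26 SE). In all 5 genes the lowest IT_HLC library lay above the highest SW_LLW library.

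Cold effectors that the clock also controls rose as well. COR28 (AT4G33980) was at the minimum in all SW_LLW libraries and at 5.11, 15 and 17.7 CPM in IT_HLC. Its mean in IT_HLC was at least 67.3-fold above the floor of 3 counts per library. Its relative COR27 (AT5G42900) went from 3.8, 4.07 and 4.56 to 19.4, 25.3 and 23.8 CPM (log2 fold change 2.46 ± 0.37 SE, edgeR adjusted p = 3.14e-05). GRP7 (AT2G21660), an RNA-binding protein under clock control, went from 10.8, 7.44 and 10.3 to 187, 438 and 363 CPM (log2 fold change 5.12 ± 0.60 SE, edgeR adjusted p = 1.97e-06). COR27 and GRP7 were likewise chosen after their values were seen.

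Among the CBF regulators, 8 of 12 tested members rose, 1 fell and 3 did not pass, with a median of 1.34; without IT_HLC replicate 3 it was 7 and 0 of 13. CBF3 (AT4G25480) was at 0.063, 0.191 and 0.12 CPM in SW_LLW and 3.62, 15.5 and 7.35 CPM in IT_HLC (log2 fold change 6.06 ± 0.56 SE, edgeR adjusted p = 8.48e-08). CBF2 (AT4G25470) went from 0.571, 0.636 and 0.72 to 7.77, 14.8 and 10.4 CPM (log2 fold change 4.08 ± 0.35 SE, edgeR adjusted p = 2.76e-08). CBF1 (AT4G25490) was at the minimum throughout SW_LLW and at 0.852, 3.71 and 1.8 CPM in IT_HLC, with a mean at least 11.3-fold above the floor. IT_HLC replicate 2 was the highest library for all 3, and they lie in tandem with similar sequences, so reads may be divided between them. Without that library the log2 fold change of CBF3 was 5.36. No SW_LLW library reached an IT_HLC library in any of the 3. RAP2.1 (AT1G46768), a repressor that CBF factors raise, went from 1.27, 1.78 and 2.52 to 11.4, 21 and 15.9 CPM (log2 fold change 3.11 ± 0.31 SE).

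**Figure D4:**
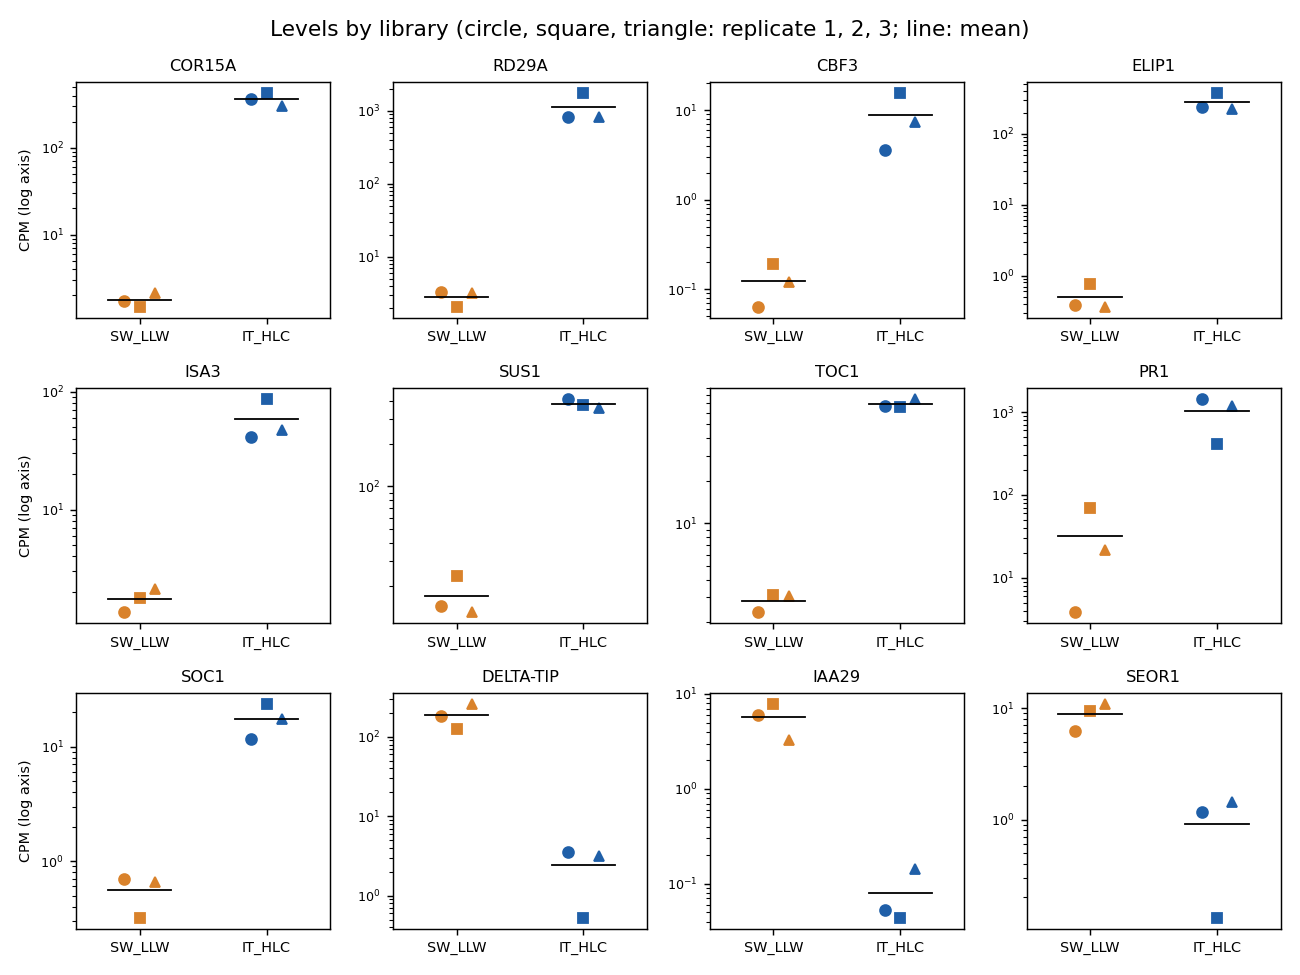
CPM in each library (log axis) of 12 genes, with SW_LLW in orange, IT_HLC in blue, the replicate number as the symbol and the group mean as a line. The 12 are called genes picked from the lists. The 2 groups do not overlap for any of them, as for 6706 of the 7313 called genes. IT_HLC replicate 2 is lowest of its group for DELTA-TIP, SEOR1 and PR1, and by little for TOC1 and for IAA29, which is at the minimum there. It is highest for COR15A, RD29A, CBF3, ELIP1, ISA3 and SOC1.

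Most starch genes rose. Of 30 starch genes 25 rose, 0 fell and 5 did not pass, with a median of 1.68; 24 rose without IT_HLC replicate 3. They include enzymes of both breakdown and synthesis. ISA3 (AT4G09020), a debranching enzyme of starch breakdown, went from 1.33, 1.78 and 2.1 to 41.4, 88 and 47.9 CPM (log2 fold change 5.08 ± 0.29 SE, edgeR adjusted p = 3.07e-10). PWD (AT5G26570), which phosphorylates starch so that it can be degraded, went from 20.5, 18 and 19 to 141, 191 and 143 CPM (log2 fold change 3.04 ± 0.20 SE, edgeR adjusted p = 1.74e-09). PHS2 (AT3G46970), the cytosolic glucan phosphorylase, went from 9.38, 9.42 and 10.3 to 145, 179 and 209 CPM (log2 fold change 4.19 ± 0.32 SE), and SBE2.1 (AT2G36390), a branching enzyme of synthesis, rose by 3.76 ± 0.26. Groups did not overlap for any of these 4.

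For sucrose and sugar transport, 13 of 21 tested genes rose and 5 fell, or 3 fell without IT_HLC replicate 2. SUS1 (AT5G20830), sucrose synthase, went from 14.4, 23.6 and 13 to 416, 374 and 357 CPM (log2 fold change 4.49 ± 0.32 SE, edgeR adjusted p = 3.05e-09). SPS1F (AT5G20280), the main leaf sucrose phosphate synthase, went from 72.5, 71 and 78.4 to 198, 316 and 266 CPM (log2 fold change 1.81 ± 0.15 SE, edgeR adjusted p = 1.79e-08), and SPP2 (AT2G35840), the phosphatase of the next step, had a log2 fold change of 1.51 ± 0.14 SE. TMT2 (AT4G35300), which loads sugar into the vacuole, rose by 2.19 ± 0.22. The groups did not overlap for any of these 4 genes.

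Compatible solutes followed in part. Of 9 tested raffinose genes 6 rose and 1 fell, but 3 rose when IT_HLC replicate 2 was left out. RS5 (AT5G40390), raffinose synthase, went from 6.59, 7.63 and 6.54 to 45.3, 63.6 and 53.9 CPM (log2 fold change 2.97 ± 0.25 SE, edgeR adjusted p = 2.85e-08). The galactinol synthase GOLS1 (AT2G47180), known for heat and drought, moved the other way from GOLS3, from 19.1, 23.7 and 22.6 to 5.06, 7.02 and 10.4 CPM (log2 fold change -1.55 ± 0.25 SE, edgeR adjusted p = 5.08e-05). Of 6 proline genes 4 rose, among them P5CS1 (AT2G39800), the rate-limiting enzyme, from 185, 183 and 132 to 793, 792 and 593 CPM (log2 fold change 2.12 ± 0.31 SE, edgeR adjusted p = 1.99e-05); 2 were higher with only the compared libraries in the fit. Desaturases were divided: of 13 membrane lipid genes 4 rose and 5 fell. ADS2 (AT2G31360), a desaturase needed in the cold, went from 13.8, 12.3 and 13.6 to 100.5, 76.3 and 127 CPM (log2 fold change 2.94 ± 0.29 SE, edgeR adjusted p = 1.7e-07), and SSI2 (AT2G43710), the plastid stearoyl desaturase, from 85.3, 80.9 and 77.9 to 48.8, 51.7 and 49.5 CPM (log2 fold change -0.70 ± 0.12 SE, edgeR adjusted p = 0.000143).

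Light-harvesting genes were lower in IT_HLC, with 1 isoform as a clear exception. Of 21 antenna genes 12 fell, 2 rose and 7 did not pass, with a median of -0.96. LHCB1.2 (AT1G29910), an abundant protein of the photosystem II antenna with near-identical copies, was at 1840.0, 1773 and 2000.0 CPM in SW_LLW and 1177, 389.5 and 938 CPM in IT_HLC (log2 fold change -1.16 ± 0.29 SE, edgeR adjusted p = 0.00354). LHCA4 (AT3G47470), of the photosystem I antenna, went from 2210.0, 2074 and 2235 to 1254, 259.7 and 1096 CPM (log2 fold change -1.32 ± 0.35 SE, edgeR adjusted p = 0.00495). In both the groups did not overlap and IT_HLC replicate 2 was by far the lowest. LHCB4.3 (AT2G40100), a minor antenna isoform known to rise in strong light, went the other way, from 15.6, 18.1 and 10.6 to 145, 51.2 and 119 CPM (log2 fold change 2.83 ± 0.40 SE, edgeR adjusted p = 1.36e-05). Without IT_HLC replicate 2, 8 antenna genes fell, and 0 when only the compared libraries entered the fit. The rises numbered 1 in that fit and when IT_HLC replicate 1 or 3 or any 1 SW_LLW library was left out, and LHCB4.3 rose under each of these settings.

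Nuclear photosystem subunits had a median of -0.52, with 10 of 31 lower and 1 higher. PETE1 (AT1G76100), the electron carrier plastocyanin, went from 58, 55.6 and 62.6 to 34.2, 10.5 and 29.9 CPM (log2 fold change -1.24 ± 0.30 SE, edgeR adjusted p = 0.00256, and 0.0617 with only the compared libraries in the fit). PSAN (AT5G64040), a photosystem I subunit, had a log2 fold change of -1.07 ± 0.29 SE. This count fell to 5 lower without IT_HLC replicate 2, and to 5 or 6 when any 1 SW_LLW library was left out, and to 0 with only the compared libraries. Calvin-Benson genes stayed mostly below the threshold, with 3 of 20 higher and 1 lower and a median of -0.14; 6 were higher without IT_HLC replicate 2 and 5 lower without replicate 1. TKL1 (AT3G60750), transketolase, rose from 246, 252 and 242 to 506, 361 and 577 CPM (log2 fold change 0.96 ± 0.19 SE, edgeR adjusted p = 0.000393).

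Photoprotection was a matter of a few genes with large changes. Of 32 tested genes 10 rose and 5 fell, with a median of 0.15; 3 fell without IT_HLC replicate 2. ELIP2 (AT4G14690), the partner of ELIP1, went from 0.063, 0.127 and 0.06 to 51.8, 6.98 and 25.9 CPM (log2 fold change 8.27 ± 0.82 SE, edgeR adjusted p = 2.65e-07; 7.48 without IT_HLC replicate 1, or 9.91 with 1 subtracted from every count). LCNP (AT3G47860), a chloroplast lipocalin of sustained energy dissipation, went from 3.55, 3.88 and 3.6 to 44.5, 20.2 and 35.4 CPM (log2 fold change 3.18 ± 0.26 SE, edgeR adjusted p = 2.04e-08), and its relative TIL (AT5G58070), the temperature-induced lipocalin, from 14.1, 18 and 15.8 to 37.3, 73.5 and 55.2 CPM (log2 fold change 1.79 ± 0.22 SE, edgeR adjusted p = 3.4e-06). Groups did not overlap in these 3. PSBS (AT1G44575), the sensor of rapid energy dissipation, did overlap: it was at 227, 245 and 202 CPM and 401, 221 and 434 CPM (log2 fold change 0.65 ± 0.23 SE, edgeR adjusted p = 0.0279), and it passed the test neither without IT_HLC replicate 1 or 3 nor without SW_LLW replicate 1 or 3, at log2 fold changes of 0.47 to 0.66.

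Pigment and plastid genes changed singly. PORB (AT4G27440), protochlorophyllide oxidoreductase, went from 43, 44 and 54.6 to 334, 170.0 and 350.4 CPM (log2 fold change 2.59 ± 0.26 SE, edgeR adjusted p = 2.34e-07). Among 18 chlorophyll synthesis genes 7 rose and 3 fell; 4 rose without IT_HLC replicate 3 and 2 without replicate 1. Of 11 genes of plastid transcription and signalling 5 rose and 2 fell, or 1 fell without IT_HLC replicate 2 or SW_LLW replicate 1. SCA3 (AT2G24120), a phage-type RNA polymerase of plastids, went from 8.88, 4.83 and 7.5 to 25.2, 32.1 and 22.1 CPM (log2 fold change 1.90 ± 0.23 SE, edgeR adjusted p = 2.32e-06). AOX1A (AT3G22370), the alternative oxidase of mitochondria, went from 3.74, 7 and 3.96 to 14.8, 17.8 and 13.6 CPM (log2 fold change 1.65 ± 0.27 SE, edgeR adjusted p = 6.11e-05), within a list of alternative respiration in which 5 of 7 rose and 0 fell, with 3 rising when SW_LLW replicate 1 or 3 was left out. Flavonoid genes, which strong light is known to raise, had a median of 0.03: of 16 tested 3 rose and 1 fell, with 8 higher when no filter on low counts was used and 1 when only the compared libraries entered the fit. F3H (AT3G51240), flavanone hydroxylase, was the clearest, from 3.11, 1.91 and 2.76 to 6.81, 15.8 and 8 CPM (log2 fold change 1.98 ± 0.29 SE, edgeR adjusted p = 1.79e-05), and PAL1 (AT2G37040), the entry enzyme, went from 12.5, 13.2 and 18.4 to 3.94, 3.62 and 5.62 CPM (log2 fold change -1.75 ± 0.36 SE, edgeR adjusted p = 0.000744).

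Clock genes moved both ways. Of 22 tested clock genes 13 rose, 7 fell and 2 did not pass, with a median of 0.98. TOC1 (AT5G61380), a repressor that peaks in the evening, was at 2.35, 3.12 and 3.06 CPM in SW_LLW and 66.7, 65.9 and 75.8 CPM in IT_HLC (log2 fold change 4.61 ± 0.23 SE, edgeR adjusted p = 1.25e-10). FKF1 (AT1G68050), a blue light receptor of late day, went from 0.38, 0.127 and 0.42 to 17.56, 41.2 and 35.4 CPM (log2 fold change 6.62 ± 0.39 SE, edgeR adjusted p = 3.49e-10). ELF3 (AT2G25930), of the evening complex, went from 3.93, 3.5 and 3.12 to 25.7, 19.1 and 21.1 CPM (log2 fold change 2.64 ± 0.26 SE, edgeR adjusted p = 1.69e-07). Its partner ELF4 (AT2G40080) went from the minimum to 0.852, 1.35 and 1.3 CPM, with a mean at least 6.24-fold above the floor. Further evening genes, chosen after their values were seen, were PRR5 (log2 fold change 7.24 ± 0.93 SE, edgeR adjusted p = 6.36e-06) and GI (log2 fold change 5.82 ± 0.58 SE, edgeR adjusted p = 2.59e-07).

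At this dawn harvest 4 clock genes known from the morning were lower in IT_HLC. CCA1 (AT2G46830), a repressor that peaks at dawn, was at 325, 309.7 and 242 CPM in SW_LLW and 212, 147 and 169 CPM in IT_HLC (log2 fold change -0.73 ± 0.24 SE, edgeR adjusted p = 0.0216), and without IT_HLC replicate 3 its adjusted p was 0.0598. Its partner LHY (AT1G01060) was at 346, 317 and 311 CPM and 188, 154 and 174 CPM (log2 fold change -0.92 ± 0.13 SE, edgeR adjusted p = 1.27e-05). RVE4 and RVE8, dawn activators, had log2 fold changes of -2.0 and -1.37. These 4 were chosen after their values were seen. Among further members known from the morning, LNK2 had a log2 fold change of -1.40, PRR9, PRR7 and LNK1 rose by 1.09, 1.37 and 0.31, and RVE1 did not pass the test, at -0.27. Of the 22 clock promoters 4 held the evening element and 7 a G-box; of the 22 cold effector promoters 5 held the evening element and 7 CCGAC.

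Growth genes fell together. Of 11 tested genes of shade and warmth growth 9 fell and 0 rose, with a median of -2.03. IAA29 (AT4G32280), an auxin repressor gene that PIF factors raise, was at 5.96, 7.83 and 3.3 CPM in SW_LLW and 0.053, 0.044 and 0.144 CPM in IT_HLC (log2 fold change -6.13 ± 0.60 SE, edgeR adjusted p = 1.61e-07; -7.74 with 1 subtracted from every count, as 2 IT_HLC libraries were at the minimum). PKS4 (AT5G04190), a phytochrome substrate in growth toward light, went from 42.2, 37.4 and 28.6 to 1.92, 0.305 and 2.67 CPM (log2 fold change -4.55 ± 0.41 SE, edgeR adjusted p = 7.44e-08). HB-2 (AT4G16780), a homeobox gene induced by shade, went from 27.2, 35.2 and 40.7 to 1.86, 6.15 and 4.9 CPM (log2 fold change -2.99 ± 0.32 SE, edgeR adjusted p = 5.84e-07). HFR1 (AT1G02340), which restrains PIF factors, went from 1.84, 4.52 and 3.12 CPM to the minimum in all IT_HLC libraries. Its mean in SW_LLW was at least 18.7-fold higher than a floor of 3 counts per IT_HLC library. No library of one group reached the other in these 4 genes.

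Water channels and wall proteins of expanding cells fell with them. Of 15 tested aquaporins 14 fell and 0 rose, with a median of -2.14; without IT_HLC replicate 3 it was 12 of 16, with 1 higher. PIP1B (AT2G45960), a plasma membrane aquaporin, went from 372, 405 and 263 to 105, 73.5 and 112 CPM (log2 fold change -1.84 ± 0.21 SE, edgeR adjusted p = 1.21e-06), and PIP1;5 (AT4G23400) from 144, 131 and 142 to 25.8, 8.99 and 37 CPM (log2 fold change -2.55 ± 0.33 SE, edgeR adjusted p = 5.29e-06). The aquaporins are similar in sequence, so reads may be divided among them. Of 22 cell wall genes 14 fell and 1 rose. SKU5 (AT4G12420), a glycoprotein of directed growth, went from 107, 82.7 and 94 to 8.57, 1.48 and 7.64 CPM (log2 fold change -4.02 ± 0.42 SE, edgeR adjusted p = 4.75e-07), FLA9 (AT1G03870), an arabinogalactan protein, from 45.4, 57.3 and 46.1 to 2.02, 0.611 and 3.96 CPM, and CESA6 (AT5G64740), a cellulose synthase of primary walls, from 174, 156 and 194 to 81.9, 67.8 and 88.7 CPM (log2 fold change -1.13 ± 0.17 SE, edgeR adjusted p = 3.56e-05). FLA9 and SKU5 were lowest in IT_HLC replicate 2, and the groups did not overlap for these 3 wall genes.

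Hormone lists differed. In ethylene signalling 8 of 14 genes fell and 0 rose. EBP (AT3G16770), an ethylene response factor, went from 374, 381 and 337 to 28.1, 21 and 35.2 CPM (log2 fold change -3.70 ± 0.41 SE, edgeR adjusted p = 9.77e-07), and the receptor ETR2 (AT3G23150) from 6.28, 6.17 and 5.82 to 0.479, 0.349 and 0.721 CPM (log2 fold change -3.59 ± 0.30 SE, edgeR adjusted p = 2.11e-08). EBF1 (AT2G25490) and EBF2 (AT5G25350), the F-box proteins that degrade the ethylene factor EIN3, had log2 fold changes of -1.59 ± 0.14 and -2.37 ± 0.24 SE. Gibberellin genes went both ways, with 5 of 15 higher and 5 lower, counts that ran from 3 to 4 and from 3 to 6 when single libraries were left out, both at 3 without IT_HLC replicate 1. GID1A (AT3G05120), a gibberellin receptor, rose from 3.99, 4.26 and 3.12 to 14.4, 14 and 11.5 CPM, and RGA1 (AT2G01570), a DELLA repressor, fell from 74.7, 85.6 and 81.4 to 33.7, 40.5 and 35.3 CPM (log2 fold change -1.14 ± 0.13 SE, edgeR adjusted p = 1.48e-06).

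Defence genes rose in part. Of 21 salicylic acid genes 9 rose and 0 fell, with a median of 0.66; 5 rose with only the compared libraries in the fit. Without IT_HLC replicate 3, 7 of 22 rose and 1 fell, with a median of 0.28, and 1 fell without SW_LLW replicate 3. PR1 (AT2G14610), the classic marker of salicylic acid defence, was at 3.8, 70.2 and 21.6 CPM in SW_LLW and 1457, 414 and 1182 CPM in IT_HLC (log2 fold change 5.0 ± 0.96 SE, edgeR adjusted p = 0.000407), and its SW_LLW libraries spread widely, with replicate 2 highest. Without that library its log2 fold change was 6.32. PR5 (AT1G75040), a thaumatin-like protein, went from 5.71, 28.6 and 25 to 161, 180.2 and 139.5 CPM (log2 fold change 3.02 ± 0.65 SE, edgeR adjusted p = 0.001). The synthesis gene ICS1 was among the 12 of the list that did not pass.

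Of 17 jasmonate genes 8 rose and 1 fell, with a median of 1.42; 5 rose without IT_HLC replicate 3. LOX2 (AT3G45140), the lipoxygenase of jasmonate synthesis, went from 163, 319 and 152 to 369.5, 1483 and 1951 CPM (log2 fold change 2.58 ± 0.53 SE, edgeR adjusted p = 0.000616), and AOC2 (AT3G25770), allene oxide cyclase, from 8.94, 7.38 and 6 to 40.6, 73.7 and 121 CPM (log2 fold change 3.39 ± 0.42 SE, edgeR adjusted p = 3.93e-06). In both genes replicate 1 was the lowest and replicate 3 the highest IT_HLC library, and the groups did not overlap. PDF1.2 (AT5G44420), the defensin raised jointly by jasmonate and ethylene, was at 0.19, 1.46 and 0.84 CPM and 483, 2.92 and 60.3 CPM, highest in IT_HLC replicate 1, and its log2 fold change was 7.76, or 5.22 without that library. Of 23 tested glucosinolate genes 5 fell and 0 rose, with a median of -0.40. The share that fell was near the 20.8% of all genes tested, and 20.5% of all genes rose. MYB28 (AT5G61420), which controls aliphatic glucosinolates, went from 22.9, 20 and 27.1 to 7.08, 7.46 and 5.7 CPM (log2 fold change -1.78 ± 0.32 SE, edgeR adjusted p = 0.000164), and CYP79B3 (AT2G22330), of the indolic branch, from 30.3, 28.6 and 39.8 to 5.32, 6.67 and 7.28 CPM (log2 fold change -2.36 ± 0.45 SE, edgeR adjusted p = 0.000322).

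Phosphate starvation genes rose, with IT_HLC replicate 3 far above the others. Of 11 tested 7 rose and 1 fell; the median was 1.74, and 1.03 without replicate 3. SPX1 (AT5G20150), a phosphate sensor, was at 2.41, 2.23 and 3.24 CPM in SW_LLW and 12.6, 7.98 and 119 CPM in IT_HLC (log2 fold change 4.13 ± 0.73 SE, edgeR adjusted p = 0.000169), and its log2 fold change was 1.96 without replicate 3. PHT1;4 (AT2G38940), a phosphate transporter, went from the minimum to 1.28, 1.92 and 10.1 CPM. Its mean in IT_HLC was at least 23.7-fold above the floor, and its fitted log2 fold change was 5.92, or 4.52 without replicate 3. PHO1 (AT3G23430), which exports phosphate, fell, from 8.81, 15.8 and 17.8 to 3.62, 1.61 and 4.54 CPM (log2 fold change -2.15 ± 0.40 SE, edgeR adjusted p = 0.000241). The iron storage protein FER1 (AT5G01600) rose from 29.1, 33.4 and 35.4 to 125, 104 and 116 CPM (log2 fold change 1.82 ± 0.31 SE, edgeR adjusted p = 0.000125), with 4 of 7 iron genes higher and 1 lower; 2 were higher without SW_LLW replicate 3. BCAT2 (AT1G10070), an aminotransferase of branched-chain amino acids, led the list of dark and starvation genes, from 1.14, 2.48 and 1.38 to 33.6, 98.5 and 38.9 CPM (log2 fold change 5.09 ± 0.56 SE, edgeR adjusted p = 8.83e-07, with 4.44 without IT_HLC replicate 2), in which 3 of 18 rose and 6 fell, or 1 fell with only the compared libraries in the fit.

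Among flowering genes 3 of 15 rose and 1 fell, beside 20.5% of all genes tested higher and 20.8% lower. SOC1 (AT2G45660), a floral integrator, was at 0.697, 0.318 and 0.66 CPM in SW_LLW and 11.7, 23.6 and 17.5 CPM in IT_HLC (log2 fold change 4.95 ± 0.52 SE, edgeR adjusted p = 4.81e-07), although the sampled leaves came from vegetative plants. VIN3 (AT5G57380), which long cold induces to start the silencing of FLC, went from 0.063, 0.191 and 0.06 to 2.02, 4.23 and 2.31 CPM (log2 fold change 4.68 ± 0.49 SE, edgeR adjusted p = 4.03e-07; 5.36 without SW_LLW replicate 2, or 5.81 with 1 subtracted from every count). FLC (AT5G10140), the repressor that cold silences, was at 64.9, 73.3 and 70 CPM and 51.9, 38.4 and 25.2 CPM, without overlap, but did not pass the test (log2 fold change -0.85 ± 0.57 SE, edgeR adjusted p = 0.248); with only the compared libraries in the fit its log2 fold change of -0.84 had an adjusted p of 0.047. CER1 (AT1G02205), which makes the alkanes of leaf wax, went from 0.127, 0.7 and 2.58 to 40.6, 35.2 and 19 CPM (log2 fold change 4.77 ± 0.67 SE, edgeR adjusted p = 1.62e-05), or 6.23 without SW_LLW replicate 3, in a wax list with 4 of 14 higher and 2 lower; 2 were higher without IT_HLC replicate 3, SW_LLW replicate 1 or SW_LLW replicate 3. HSC70-1 (AT5G02500), a constitutive chaperone, fell from 1073, 938 and 939 to 525, 443 and 453 CPM (log2 fold change -1.05 ± 0.16 SE, edgeR adjusted p = 2.93e-05). The lists of photorespiration, nitrate assimilation, ribosome biogenesis, heat shock and senescence had at most 3 members past the test in either direction, among them NYC1 (AT4G13250), a chlorophyll b reductase, which went from 20.4, 21.7 and 18.4 to 76.9, 87.7 and 76.9 CPM (log2 fold change 2.0 ± 0.16 SE, edgeR adjusted p = 1.27e-08).

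Markers of some other leaf cell types differed between the groups too. All 7 tested phloem markers fell, and their summed level over 8 genes was 214.7, 198.6 and 229.3 CPM in SW_LLW and 90.0, 106.4 and 120.7 CPM in IT_HLC; SULTR1;3 was at the minimum in all 6. SEOR1 (AT3G01680), a filament protein of sieve elements, went from 6.21, 9.48 and 10.9 to 1.17, 0.131 and 1.44 CPM (log2 fold change -3.37 ± 0.63 SE, edgeR adjusted p = 0.000305; -2.76 without IT_HLC replicate 2). Of 6 tested xylem markers 5 fell, from sums of 5.77, 8.59 and 13.5 CPM to 2.08, 1.396 and 2.74 CPM, with VND7 at the minimum in all 6 and 3 lower without SW_LLW replicate 3. Guard cell markers had 2 of 6 lower, from sums of 19.97, 18.01 and 15.9 CPM to 10.6, 7.59 and 11.9 CPM. Epidermal markers overlapped, at 127.9, 142.3 and 128.5 CPM and 152.2, 104.8 and 125.4 CPM, with 1 of 4 higher and 2 lower. The higher count was 0 without IT_HLC replicate 1, SW_LLW replicate 1 or SW_LLW replicate 2. The lower count was 0 without IT_HLC replicate 2, without SW_LLW replicate 2 or with only the compared libraries, and 3 without IT_HLC replicate 3. Markers of dividing cells summed to 6.28, 5.47 and 4.68 CPM and 2.08, 0.916 and 4.97 CPM, with CDKB1;1 at the minimum in all 6. In bulk leaf discs fewer cells of a type and less RNA per cell cannot be told apart, and the part of tissue makeup in the falls of aquaporin, wall and transport genes was not tested.

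The series holds a second pair with the same change of regime and the ecotype labels exchanged: SW_HLC (Rodasen-47, High light, cool) against IT_LLW (Castelnuovo-12, Low light, warm), 3 libraries each, which share no library with the first pair and carry the second transcript set. There 4259 of 17709 genes (24.0%) were higher in the cool group and 3941 (22.3%) lower. Lists are given side by side: cold effectors had 17 of 22 higher, 1 lower and a median of 2.86, starch genes 27 of 30 higher and 2.11, antenna genes 12 of 21 lower and -0.98, aquaporins 13 of 15 lower and -1.89, and clock genes 11 of 22 higher and 7 lower. Other lists were further from their first-pair values. Glucosinolate genes had 8 of 23 higher and 3 lower and a median of 0.61, against 0 and 5 and -0.40 in the first pair. Flavonoid genes had 8 of 16 higher and a median of 1.09, against 3 and 0.03. Dark and starvation genes had 13 of 18 lower and -1.74, against 6 and -0.40, and phosphate starvation genes 10 of 11 higher and 4.85, against 7 and 1.74. No list was tested for this difference as a whole. For 5 genes described above, the log2 fold changes in the first and the second pair were ISA3 5.08 and 4.50, TOC1 4.61 and 4.95, SUS1 4.49 and 4.06, EXO -5.75 and -5.74, DELTA-TIP -6.33 and -6.94. None of these 5 passed the test of the difference that follows.

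The difference between both changes of regime was tested in the same fit. It coincides with the difference in transcript set and with the reversed order of labels, which cannot be told apart in it. In log2 terms it equals Castelnuovo-12 minus Rodasen-47, summed over both regimes. A level difference between the labels that is the same in both regimes therefore also enters it. At an adjusted p below 0.05, 294 genes (1.66%) changed more toward higher values in the first pair and 299 (1.69%) more toward lower ones. Without IT_HLC replicate 3 these were 341 and 551, and without SW_LLW replicate 1, 2 or 3 they were 173 and 192, 160 and 166, and 144 and 163. A miss in this test does not show that both pairs changed alike: 3487 of the risen and 3474 of the fallen genes of the first pair did not pass it.

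**Figure D5:**
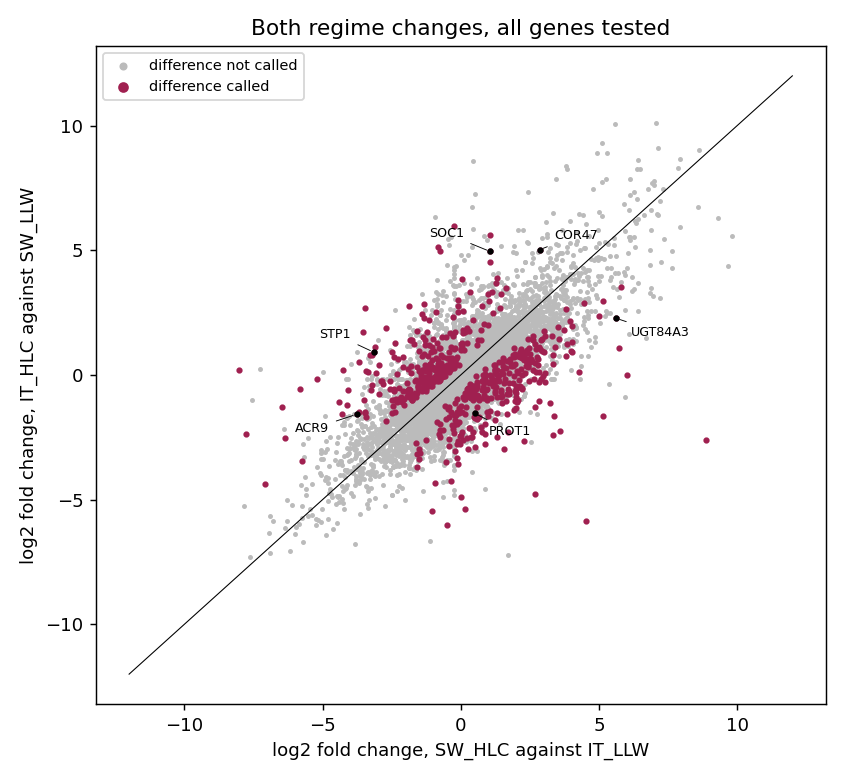
Log2 fold change of the first pair (IT_HLC against SW_LLW, vertical) over that of the second pair (SW_HLC against IT_LLW, horizontal) for all genes tested, with genes past the test of the difference in red and the line of equal change. The labelled genes run from STP1, at 0.92 and -3.15, to UGT84A3, at 2.27 and 5.63.

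Some genes had changes of opposite sign. STP1 (AT1G11260), a hexose importer of the plasma membrane, was at 43.5, 38.4 and 43.7 CPM in SW_LLW and 89, 42.1 and 106 CPM in IT_HLC, but at 578, 696 and 851 CPM in IT_LLW and 84.8, 77.3 and 77.1 CPM in SW_HLC (difference of the log2 fold changes 4.07 ± 0.46 SE, edgeR adjusted p = 0.000109). The IT_LLW group alone stood high. The groups of the first pair overlapped, and its log2 fold change of 0.92 (edgeR adjusted p = 0.0256) did not pass without IT_HLC replicate 1 or 3, without any 1 SW_LLW library or with only the compared libraries, at adjusted p of 0.0555 to 0.138. PROT1 (AT2G39890), a proline transporter, went from 18.6, 17.5 and 22.3 to 6.07, 5.41 and 8.87 CPM in the first pair and from 11.3, 10.3 and 9.18 to 14, 16 and 13.6 CPM in the second (difference -2.03 ± 0.23 SE, edgeR adjusted p = 0.000101). P5CR (AT5G14800), the last enzyme of proline synthesis, went from 5.13, 4.64 and 5.34 to 11.8, 8.51 and 12.5 CPM and from 21.7, 21.6 and 21.2 to 17.35, 18.1 and 15.6 CPM (difference 1.45 ± 0.18 SE, edgeR adjusted p = 0.000406). For STP1 and P5CR the warm groups lay further apart than the cool groups, and PROT1 was higher in the Rodasen-47 group in both regimes.

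Others differed in the size of the change. COR47 rose in both pairs, by 5.03 and 2.86: it was at 18.4, 22.2 and 16.7 CPM in IT_LLW and 119, 175 and 123 CPM in SW_HLC, and the cool groups lay further apart than the warm groups (difference 2.16 ± 0.33 SE, edgeR adjusted p = 0.00187). RS5 rose by 2.97 and 1.03 (difference 1.94 ± 0.35 SE, edgeR adjusted p = 0.00423), with 5.83, 7.03 and 7.37 CPM in IT_LLW and 8.99, 20.2 and 12 CPM in SW_HLC. ERD4 (AT1G30360), a membrane protein named for early response to dehydration, rose from 38.3, 36 and 35.8 to 121, 158 and 123 CPM in the first pair and was at 68.5, 87.9 and 81.5 CPM and 70.6, 109.6 and 98 CPM in the second (difference 1.64 ± 0.24 SE, edgeR adjusted p = 0.00148). SOC1 was at 10.9, 25.4 and 9.69 CPM in IT_LLW and 39.7, 33.5 and 22.3 CPM in SW_HLC, against its far larger step in the first pair (difference 3.89 ± 0.65 SE, edgeR adjusted p = 0.00319). COR47 and RS5 thus differed mainly between the cool groups, and ERD4 and SOC1 had their lowest level in SW_LLW.

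In further genes the warm groups lay further apart than the cool groups. UGT84A3 (AT4G15490), a glucosyltransferase of phenolic acids, went from 4.63, 5.34 and 4.08 to 20.9, 28.2 and 18.7 CPM in the first pair and from 0.331, 0.331 and 0.578 to 17.41, 22.5 and 22.8 CPM in the second (difference -3.36 ± 0.48 SE, edgeR adjusted p = 0.000912). ACR9 (AT2G39570), a protein with amino-acid-binding ACT domains, fell in both, from 48.3, 40.7 and 54.2 to 16, 12.9 and 19.2 CPM and from 186, 241 and 264 to 20.1, 15.9 and 14.6 CPM (difference 2.19 ± 0.30 SE, edgeR adjusted p = 0.000724). MYB28 was at 6.23, 6.62 and 3.54 CPM in IT_LLW and 8.18, 9.95 and 6.78 CPM in SW_HLC, so its fall was seen in the first pair (difference -2.39 ± 0.45 SE, edgeR adjusted p = 0.0062). PHO1 was at 7.35, 5.29 and 2.46 CPM and 4.99, 7 and 6.72 CPM there (difference -2.45 ± 0.55 SE, edgeR adjusted p = 0.0193).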

How the data were processed

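RNA was sequenced from ribosome-depleted TruSeq libraries, per the labels' protocols. The deposited table holds whole-number counts for 33610 gene identifiers, 1 column per library, with no value below 1; the sources used here do not give how the authors treated 0, nor whether strand was used. Per the submitters' processing notes, HISAT, StringTie, DESeq2 and TAIR10 were used, with no versions listed. Both ecotypes were counted on 1 reference, and near-identical genes can share reads.

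Deposited counts entered edgeR 4.0.16 in R 4.3.3 (limma 3.58.1): TMM scaling, filterByExpr (minimum count 10, total 15), glmQLFit with robust estimation on 8 groups and all 24 libraries, glmQLFTest, and Benjamini-Hochberg adjustment over the 17709 genes kept. The standard error is the log2 fold change over the square root of F. DESeq2 1.42.0 and other settings were alternatives. On simulated counts with the same spread in all libraries, the fit recovered 94% of genes changed by a log2 fold change of 1. The changed genes were drawn from well-expressed ones. This share therefore does not cover uneven libraries or genes near the minimum.

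Named genes were the 8 largest rises and falls, up to 4 genes of smallest p in each list, and 5 in each direction of the difference; part of them are printed. The members, the 40 lists (638 memberships) and the naming rule were chosen with earlier results of these data known. Symbols matched for 28932 identifiers. The labels' library codes fall into series, and all 6 libraries share one. Replicate numbers did not pair the libraries. Floors of 3 counts cover counting error only. Promoters were read from TAIR10.1 by its own annotation. Some items are not reported here.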

Additional observations from a re-analysis of the deposited data

Results flagged for a closer look

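The change from low light and warm leaves to high light and cool leaves differed between the first pair (IT_HLC against SW_LLW) and the second pair (SW_HLC against IT_LLW) for 593 genes, by edgeR's test of the difference itself. In that test, the transcript set and the order of the ecotype labels change together and cannot be told apart. A level difference between the labels that is the same in both regimes also enters it.

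Among the named genes, differences of the log2 fold changes above 0 were found for STP1 (4.07), SOC1 (3.89), FRO3 (2.47), ACR9 (2.19), COR47 (2.16), RS5 (1.94), ERD4 (1.64), ZAT (1.47) and P5CR (1.45). For FRO3 (AT1G23020), a ferric reductase, the first pair went from 7.23, 6.87 and 6.36 to 2.66, 5.37 and 1.8 CPM and the second from 10.6, 10.8 and 12.7 to 0.754, 1.04 and 1.21 CPM. ZAT (AT2G46800), a zinc transporter of the vacuole, went from 25.6, 21.4 and 19.4 to 14.2, 16.8 and 11.9 CPM and from 30.4, 25.2 and 30.3 to 6.73, 6.51 and 6.84 CPM.

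Differences below 0 were found for UGT84A3 (-3.36), MCM2 (-2.48), PHO1 (-2.45), MYB28 (-2.39), PROT1 (-2.03), SD1-29 (-1.72), UGP1 (-1.34), RIPK (-1.31) and GLK1 (-1.22). GLK1 (AT2G20570), a transcription factor of chloroplast development, went from 102, 121 and 107 to 52.6, 54.7 and 72.2 CPM in the first pair and from 95.2, 84.3 and 84.1 to 125, 126 and 83.5 CPM in the second. UGP1 (AT3G03250), which makes UDP-glucose, went from 37.3, 41.2 and 40.9 to 65, 89.5 and 68.3 CPM and from 19.4, 16 and 17.1 to 76.3, 99.9 and 71.2 CPM. MCM2 (AT1G44900), a helicase subunit of DNA replication, was at 3.68, 2.67 and 1.56 and 0.426, 0.262 and 2.52 CPM in the first pair, with IT_HLC replicate 3 near the warm libraries, and at 1.26, 1.74 and 1.59 and 3.48, 2.46 and 3.51 CPM in the second. The receptor kinase gene SD1-29 (AT1G61380) was at 28.8, 33.6 and 24.1 and 44.3, 45.1 and 42.7 CPM and then 7.88, 7.03 and 8.1 and 35.5, 38.9 and 41.4 CPM. RIPK (AT2G05940), a kinase of immune signalling, did not pass the test in the first pair (log2 fold change -0.18, edgeR adjusted p = 0.35) and had 1.13 in the second. Without IT_HLC replicate 3 the difference for MCM2 was -3.98, against -2.48 with it. All 18 genes named here also passed the test of the difference without IT_HLC replicate 3.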

How the results depend on the processing

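Each result was counted once for every setting tried, so 1 result enters many times. Of these cases, 3227 kept their direction and their side of the threshold or stayed within 1.5 times. In 155 cases a count moved further, in 99 the call was lost, in 1 it was gained and in 1 the direction reversed. With only the compared libraries in the fit, 23 named genes lost their call, 2332 genes were lower and the difference had 160 lower genes. FLC then reached an edgeR adjusted p of 0.047 at a log2 fold change of -0.84. That fit estimates the spread from fewer libraries, and whether this led to the changes was not tested. For the difference, DESeq2's Wald test gave 526 higher genes, and the same test without IT_HLC replicate 3, chosen after seeing the data, gave 577 higher and 661 lower. Leaving out 1 library at a time gave 144 to 422 higher and 163 to 551 lower genes in the difference, and 2916 to 3642 higher and 3058 to 3605 lower genes in the main comparison. NYE2, a chlorophyll breakdown gene, reversed to -1.91 without IT_HLC replicate 2, where it was high, and lay between -1.91 and 3.67 when single libraries were left out; the cause of the other changes was not tested. First-set transcripts numbered 46 with at most 1 count where off and 25 with at least 30 counts where on, and second-set transcripts 24 with the latter. The median log2 fold change of all genes was 0.001 in the main fit, 0.007 with DESeq2 size factors and 0.025 with organelle genes left out. Without the low-count filter it was -0.064, and 54.9% of calls were higher, against 49.7% in the main fit.

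With the replicate number as a block, 3478 genes were higher and 3596 lower, and the difference had 233 higher and 266 lower genes; 1 named gene, NYE2, lost its call. The correlations of same-numbered libraries were 0.15, 0.08 and -0.02, so the numbers were not treated as pairs.

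Depth limits genes near the minimum of 1 count: where a whole group is at it the fold change is a bound, and where 2 of 3 libraries are, the fitted value depends on the offset. With 1 subtracted from every count, the log2 fold change of ELIP2 was 9.91 in place of 8.27 and that of IAA29 -7.74 in place of -6.13.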
